A study of Homo sapiens with 6 samples.

Results

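The RAB small GTPases were followed in the human melanoma cell line A375 after transfection of the long non-coding RNA SLNCR (LINC00673). Members were the protein-coding genes whose GENCODE symbol is RAB followed by a number and at most 1 letter and 1 further digit. The rule gave 57 of the 18318 genes of the count table. RAB4A, RAB4B, RAB3C, RAB37, RAB40B and RAB44 were not analysed here. The SLNCR cells, 3 libraries, had received pcDNA3.1 with wild type, full-length SLNCR, and the control cells, also 3 libraries, the vector backbone. Per the labels, the plasmid held a CAG promoter and a puromycin resistance gene, Lipofectamine 2000 delivered it, and RNA was extracted after 48 h in 2 µg/mL puromycin. Libraries were depleted of ribosomal RNA and sequenced as paired reads of 150 bases. Each library therefore came from a selected pool of transfected cells of 1 line, and the transgene was driven by the plasmid and not by the cells' own promoter. The series text calls the libraries biological replicates and does not say how the cultures were separated, so p-values measure the spread between these libraries only. In such bulk RNA, fewer cells of a kind and less RNA per cell cannot be told apart.

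RAB proteins are molecular switches that give each membrane compartment of a cell its identity. Bound to GTP they sit on a membrane through prenyl tails and recruit effectors (tethers, motors and lipid enzymes), exchange factors load them with GTP, and GTPase-activating proteins switch them off. In pigment cells RAB32 and RAB38 direct enzymes to the melanosome, and RAB27A ties mature melanosomes to the actin motor myosin Va. Many RAB proteins exist as close paralogs, encoded by separate genes whose proteins are alike to a varying degree. In the pairs compared below, amino acid identity ran from 72.5% for RAB27A and RAB27B to 93.5% for RAB1A and RAB1B.

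The paralog pairs are shown first, because their proteins are similar while their transcripts differ in GC content, and the changes in the family varied with GC content. The stretches below are 20 aligned codons of the coding sequence (60 bases, 5′ to 3′ in the sense of the gene), read from GENCODE 29 transcripts on GRCh38. Only stretches within an exon that encode the same amino acids in both members were considered. Of these, the stretch with the most differing bases was taken for each pair. This choice favours differences at the last base of a codon, so the stretches are illustrations. Capitals mark bases that differ between the members of a pair. They lie at chr15:65877334-65877393 on the plus strand for RAB11A and at chr19:8399865-8399924 on the plus strand for RAB11B, at chr2:65088625-65088684 on the minus strand for RAB1A and at chr11:66276050-66276109 on the plus strand for RAB1B.
RAB11A: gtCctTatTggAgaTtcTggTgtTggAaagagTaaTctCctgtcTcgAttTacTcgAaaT
RAB11B: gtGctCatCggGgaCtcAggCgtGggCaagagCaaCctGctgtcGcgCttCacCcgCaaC
RAB1A: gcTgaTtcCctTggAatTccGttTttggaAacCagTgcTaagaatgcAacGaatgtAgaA
RAB1B: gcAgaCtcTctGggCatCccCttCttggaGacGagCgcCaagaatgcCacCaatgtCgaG

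In the RAB11 stretch all 18 differing bases were at position 3 of a codon, and the GC content was 40% in RAB11A and 65% in RAB11B. In the RAB1 stretch all 16 were at position 3, with 41.7% GC in RAB1A and 58.3% in RAB1B. Over the whole aligned coding sequence, RAB1A and RAB1B differed at 142 bases, of which 117 were at codon position 3. Of their 127 differing codons, 114 encoded the same amino acid. Position 3 held G or C in RAB1B alone at 83 of those codons and in RAB1A alone at 12. RAB11A and RAB11B differed in 152 codons, of which 135 encoded the same amino acid, and position 3 held G or C in RAB11B alone 119 times and in RAB11A alone 5 times. Such pairs thus code for similar proteins from transcripts of unequal base composition.

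RAB5A and RAB5C (chr3:19975669-19975728, plus strand, and chr17:42128673-42128732, minus strand) and RAB8B and RAB8A (chr15:63249646-63249705 and chr19:16121751-16121810, both plus strand) are 2 further pairs far apart in GC content, each with 1 called member (RAB5A and RAB8B). Of the RAB1 pair RAB1B was called, and of the RAB11 pair neither member. The RAB6 stretch shows the opposite case, in which RAB6A (chr11:73760567-73760626, minus strand) and RAB6C (chr2:129980125-129980184, plus strand) do not differ at any of the 60 bases.
RAB5A: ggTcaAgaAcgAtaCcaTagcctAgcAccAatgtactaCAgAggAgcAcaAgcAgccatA
RAB5C: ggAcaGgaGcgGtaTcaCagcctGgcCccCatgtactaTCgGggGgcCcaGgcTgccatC
RAB8B: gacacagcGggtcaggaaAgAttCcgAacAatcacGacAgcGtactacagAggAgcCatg
RAB8A: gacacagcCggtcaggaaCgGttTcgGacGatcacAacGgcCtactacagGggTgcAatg
RAB6A: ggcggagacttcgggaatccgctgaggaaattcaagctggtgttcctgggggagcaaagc
RAB6C: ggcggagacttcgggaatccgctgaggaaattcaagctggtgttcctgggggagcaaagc

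RAB5A and RAB5C differed at 177 aligned coding bases, 136 of them at codon position 3, and position 3 held G or C in RAB5C alone at 97 codons and in RAB5A alone at 20. RAB8A and RAB8B differed at 151 bases, and here RAB8A was the member richer in G or C, alone at 65 codons against 20 for RAB8B. RAB6A shared 96.3% of aligned coding bases with RAB6C and 96.5% with RAB6D. How the read counter treated reads that match several genes is not given in the sources used here, so the counts of RAB6A, RAB6C and RAB6D are uncertain with respect to each other.

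Total gene counts were 9018886 to 10497547 in the SLNCR libraries and 9054160 to 10149355 in the empty vector libraries. The transfected gene carried the label in every library: LINC00673 had 1786, 2569 and 2040 counts with SLNCR and 195, 194 and 193 with empty vector. The labels name the cells epithelial, and markers fixed for that type were sparse. EPCAM, CDH1, KRT5 and KRT14 had at most 6 counts in any library, and KRT10 and KRT7 made up most of the summed epithelial list (43.8 to 55.4 CPM with SLNCR and 56.5 to 66.9 CPM with empty vector). Among melanocyte markers, MITF averaged 95.6 CPM with SLNCR and 85.4 CPM with empty vector, and SOX10 12.7 CPM and 13.4 CPM in the same order, while PMEL, MLANA, TYRP1 and DCT had at most 16 counts in any library. Of the other lists, fibroblast markers summed to 15.8 to 17.8 CPM with SLNCR and 15.6 to 18.7 CPM with empty vector, and immune and endothelial markers to at most 4.16 CPM in any library. Their part in the results below was not tested. Libraries also differed by gene GC content, and this touches most results below. Log2 CPM was taken relative to the gene's mean over all libraries. Per 10 percentage points of GC content it changed by -0.08, -0.03 and -0.16 in the 3 SLNCR libraries, replicate 1 first. In the 3 with empty vector it changed by 0.13, 0.09 and 0.04. These slopes are relative, so a negative slope in some libraries entails a positive one in others.

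Of the 57 RAB genes, 47 had enough counts to be tested, and 9 differed between the groups by edgeR's quasi-likelihood test (Benjamini-Hochberg adjusted p below 0.05 over 12797 genes). RAB14, RAB27B, RAB6A, RAB5A, RAB2A, RAB8B and RAB18 were higher with SLNCR, by 1.18-fold to 1.32-fold, and RAB1B and RAB34 were lower, at 0.874 and 0.880 times the empty vector level. Of the 47 members, 14.9% were called higher, 4.26% lower and 19.1% in either direction, beside 8.84%, 7.67% and 16.5% of all tested genes. The share in either direction was thus near the background, with more of the members' calls higher than lower. All 9 called members had groups that did not overlap, which is no separate support, since the test used the same libraries. Without overlap there were in all 15 members higher and 4 lower, beside 19.7% of all tested genes higher and 19.1% lower. The median log2 fold change was 0.07 over the tested members, 31 of which were positive and 16 negative, and -0.01 over all tested genes.

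The number of calls changed with the libraries used and with the handling of GC content. Without empty vector replicate 1, without empty vector replicate 2 or without SLNCR replicate 1, 0 members were called, while at an unadjusted p below 0.05 there were 9 higher and 1 lower, 9 and 7, and 11 and 6. In each of these 3 fits at most 1 of all tested genes was called in each direction, so the loss was one of the whole table. Unadjusted counts over all tested genes were not taken in these fits, so those of the members stand without a background. All 9 called members kept their direction in all 6 fits without 1 library. RAB14, at 0.27 on the log2 scale with every library, stood at 0.25 to 0.29 in the 3 fits without calls, and RAB1B, at -0.19 with every library, at -0.21 to -0.13. RAB5A was the called member that moved by more than 1.5 times, to 0.18 without SLNCR replicate 3. Without SLNCR replicate 2 there were 11 higher and 6 lower (all genes 1722 and 1644). Without SLNCR replicate 3 there were 5 and 1 (all genes 807 and 710). Leaving out empty vector replicate 3 gave 7 and 2 (all genes 1007 and 877). When the GC trend was removed from each library, edgeR called 0 of the 47 members and 0.0156% of all tested genes. At an unadjusted p below 0.05 in that fit, 6 members were higher and 2 lower, beside 15.1% of all tested genes in either direction. DESeq2 without that correction called 7 members higher and 1 lower (all genes 913 and 720).

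**Figure D1:**
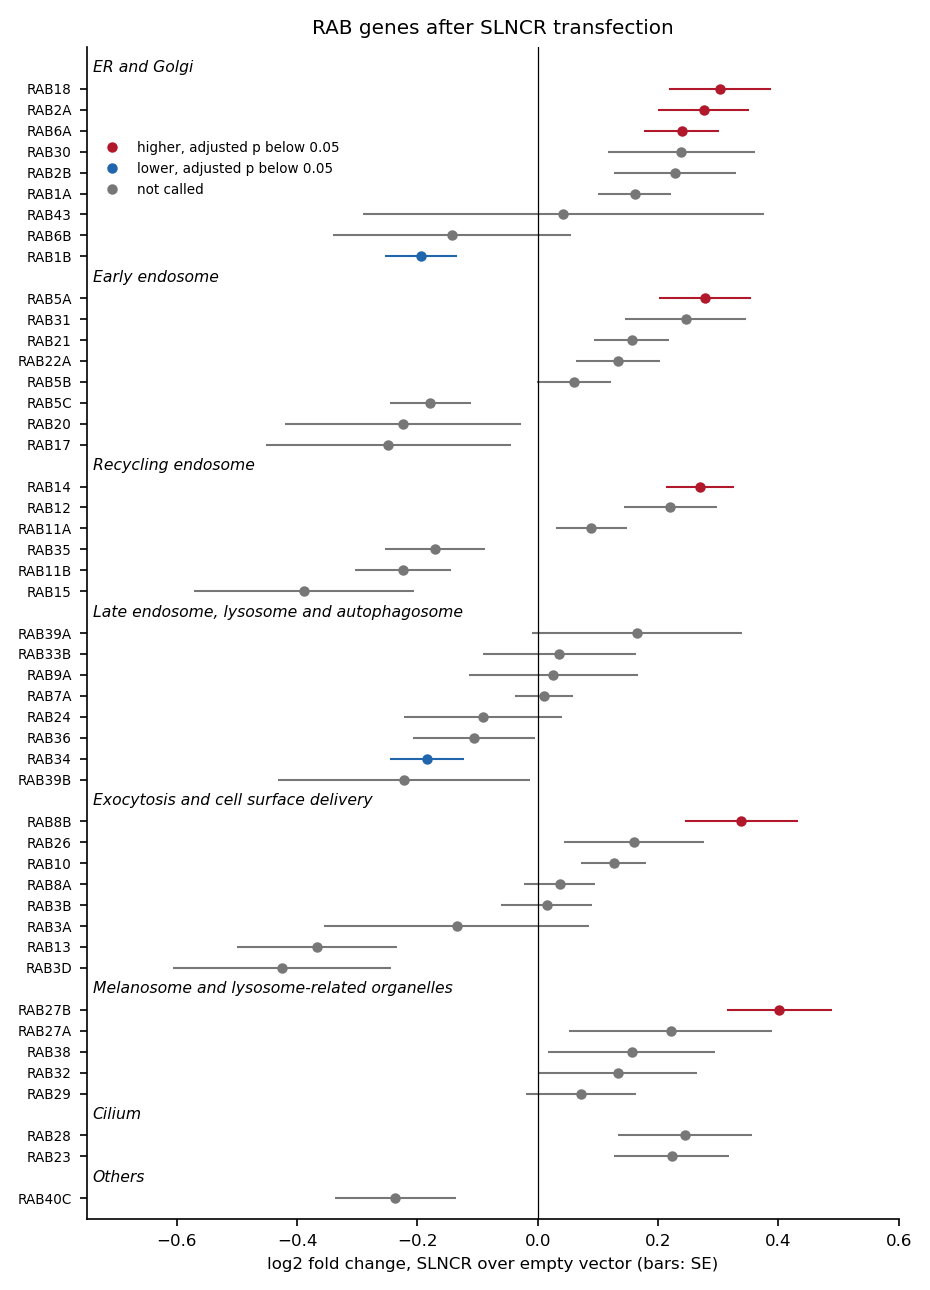
The log2 fold change of each of the 47 tested RAB genes (x axis, SLNCR over empty vector) is drawn with its standard error, grouped by the compartment the protein is known for. Red points are the 7 members called higher, blue points the 2 called lower and grey points the 38 not called, and values run from -0.43 (RAB3D) to 0.40 (RAB27B).

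Of the 13 RABs of the endoplasmic reticulum (ER) and Golgi, 9 were tested, 3 were called higher and 1 lower, and the median log2 fold change was 0.23. The median GC content of these 9 was 41.8%, and of all tested genes below 45% GC, 21.5% were called higher and 0.4% lower. The counts of this and the other compartments are small and are to be read beside the 8.84% and 7.67% of all tested genes called. RAB2A (ENSG00000104388, chromosome 8, 60516857 to 60623627 on GRCh38), which acts between the ER and the Golgi, had 164, 144 and 181 CPM with SLNCR and 126, 134 and 144 CPM with empty vector. SLNCR replicate 2 and empty vector replicate 3 nearly met, and replicate 3 was the highest in both groups. For RAB2A the log2 fold change was 0.28 ± 0.0754 (SE), with an adjusted p of 0.0250 in edgeR. RAB6A (ENSG00000175582, chromosome 11, 73675638 to 73761137), which drives transport within and from the Golgi, had 116, 111 and 125 CPM with SLNCR and 98.8, 97.6 and 103 CPM with empty vector. Every SLNCR library was above every empty vector library, and the log2 fold change was 0.24 ± 0.0621 (SE), with an adjusted p of 0.0201 in edgeR.

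RAB18 (ENSG00000099246, chromosome 10, 27504174 to 27542237), a regulator of ER structure and lipid droplets, had 47.1, 45.7 and 54.97 CPM with SLNCR and 37.9, 39.4 and 42.2 CPM with empty vector. The groups were apart, with SLNCR replicate 3 the highest, and the log2 fold change was 0.30 ± 0.0845 (SE), with an adjusted p of 0.0260 in edgeR. RAB1B (ENSG00000174903, chromosome 11, 66268533 to 66277492), needed for traffic from the ER to the Golgi, had 185, 193 and 177 CPM with SLNCR and 228, 207 and 199 CPM with empty vector. All SLNCR values of RAB1B were below all empty vector values, with a log2 fold change of -0.19 ± 0.0603 (SE), with an adjusted p of 0.0384 in edgeR. Its paralog RAB1A stood at 0.16 and did not pass (edgeR adjusted p = 0.0711). Of the others, RAB30, RAB2B and RAB43 had log2 fold changes of 0.24, 0.23 and 0.04 and RAB6B one of -0.14, and none of them passed the test.

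Among the 8 RABs of the early endosome, all tested, RAB5A alone was called, and the median log2 fold change was 0.10. RAB5A (ENSG00000144566, chromosome 3, 19947079 to 19985175) controls fusion of early endosomes and had 101, 95.2 and 120 CPM with SLNCR and 85.4, 85.5 and 89.5 CPM with empty vector. The empty vector libraries lay close together below the lowest SLNCR library, and the log2 fold change was 0.28 ± 0.0761 (SE), with an adjusted p of 0.0244 in edgeR. Its paralogs RAB5B and RAB5C stood at 0.06 and -0.18 without passing the test. RAB31, RAB21 and RAB22A, which also act at endosomes, had values of 0.25, 0.16 and 0.13, and RAB20 and RAB17, at 3.55 to 6.13 CPM on average in either group, had values of -0.22 and -0.25. RAB5A overlaps PP2D1 in the annotation by gene span, and exons were not compared. The strand setting of the counter is not given, so how reads in any shared sequence were assigned is uncertain. Of the 57 members, 18 overlap another gene of the count table in this way, 2 of them called (RAB5A and RAB14). The 18 include RAB1A, RAB2B, RAB3A, RAB3D, RAB6B, RAB8A, RAB11A, RAB11B and RAB27A, which enter the paralog ratios below.

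RAB14 was the called member among the RABs of the recycling endosome, of which 6 of 7 were tested, with a median log2 fold change of -0.04. RAB14 (ENSG00000119396, chromosome 9, 121178137 to 121223014), which acts between the Golgi and recycling endosomes, had 187, 185 and 203 CPM with SLNCR and 157, 155 and 165 CPM with empty vector. The lowest SLNCR library was well above the highest empty vector library, and RAB14 had the smallest adjusted p of the family (log2 fold change 0.27, SE 0.0566, edgeR adjusted p = 0.0137). RAB14 overlaps GSN in the annotation by gene span, with the same limits on strand and exons. RAB12, which takes part in the sorting of transferrin receptor, was the member nearest to the threshold from outside (0.22, edgeR adjusted p = 0.0579), followed by RAB11B at -0.22 (0.0614), while RAB34 was the called member nearest to it from inside (0.0493). RAB11A, the paralog of RAB11B in slow recycling, stood at 0.09, RAB35 of the fast recycling route at -0.17 and RAB15 at -0.39, all without passing.

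The late endosome, lysosome and autophagosome group had 8 of 11 members tested and a median log2 fold change of -0.04. RAB34 (ENSG00000109113, chromosome 17, 28714281 to 28718429), which positions lysosomes and takes part in cilium formation, had 106, 107 and 97.7 CPM with SLNCR and 123, 114 and 116 CPM with empty vector. The lowest empty vector library was above the highest SLNCR library, and the log2 fold change was -0.18 ± 0.0615 (SE), with an adjusted p of 0.0493 in edgeR. RAB7A, the RAB of late endosomes, had 295, 301 and 309 CPM with SLNCR and 299, 300 and 300 CPM with empty vector. The SLNCR range took in all 3 empty vector values, and the log2 fold change was 0.01 ± 0.0477 (SE), with an adjusted p of 0.877 in edgeR. RAB39A stood at 0.17, RAB33B, which acts in autophagosome formation, at 0.04, RAB9A, which returns receptors to the Golgi, at 0.03, and RAB24, RAB36 and RAB39B at -0.09, -0.11 and -0.22, and none of these 6 passed.

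In the exocytosis and cell surface group, all 8 members were tested and the median log2 fold change was 0.03. RAB8B (ENSG00000166128, chromosome 15, 63189469 to 63267782), which delivers vesicles from the Golgi to the cell surface, had 36.6, 31.1 and 38.9 CPM with SLNCR and 29.2, 26.5 and 28.3 CPM with empty vector. The groups did not overlap, SLNCR replicate 2 being the lowest of its group, and the log2 fold change was 0.34 ± 0.0940 (SE), with an adjusted p of 0.0255 in edgeR. Its paralog RAB8A had a value of 0.04 (edgeR adjusted p = 0.689). RAB26 stood at 0.16, RAB10, which brings glucose transporter vesicles to the surface, at 0.13, RAB3B and RAB3A of regulated secretion at 0.01 and -0.13, RAB13 of tight junctions at -0.37 and RAB3D at -0.43. RAB13 and RAB3D had the widest differences below 0 in the group, on standard errors of 0.133 and 0.182, and did not pass (edgeR adjusted p = 0.0647 and 0.106).

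RABs of melanosomes and other lysosome-related organelles were all 5 tested, and all 5 values were positive, with a median log2 fold change of 0.16. RAB27B (ENSG00000041353, chromosome 18, 54717860 to 54895516), which tethers secretory granules and exosome-bearing endosomes at the cell surface, had 55.6, 56.9 and 57.5 CPM with SLNCR and 40.1, 38.9 and 49.8 CPM with empty vector. The SLNCR libraries were within 2 CPM of each other, and empty vector replicate 3 was the closest to them. RAB27B had the highest log2 fold change of any tested member, 0.40 (SE 0.0869, edgeR adjusted p = 0.0139).

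The melanosome RABs proper did not pass the test. RAB27A had 6.08, 6.25 and 6.68 CPM with SLNCR and 4.79, 5.29 and 6.24 CPM with empty vector, and empty vector replicate 3 fell inside the SLNCR range (log2 fold change 0.22, SE 0.169, edgeR adjusted p = 0.366). RAB32 had 9.79, 9.32 and 9.90 CPM with SLNCR and 9.38, 8.59 and 8.43 CPM with empty vector, again with an overlap of 1 library (0.13, SE 0.131, edgeR adjusted p = 0.489). RAB38 had 9.41, 8.55 and 8.01 CPM with SLNCR and 7.78, 7.71 and 7.88 CPM with empty vector. Its groups did not overlap, and the difference did not pass the test (0.16, SE 0.139, edgeR adjusted p = 0.444). RAB29, a partner of the kinase LRRK2 at lysosomes and the Golgi, stood at 0.07.

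The cilium RABs RAB28 and RAB23 had log2 fold changes of 0.25 and 0.22, and RAB40C, of the RAB40 branch that assembles ubiquitin ligases, one of -0.24, all without passing. The 10 members not tested had a mean of under 10 counts per library. RAB6C, RAB6D, RAB41, RAB9B, RAB40A and RAB42 had 2 to 12 counts in every library. RAB25, RAB7B, RAB19 and RAB33A had 0 to 2 counts in every library, so differences in these genes were not detectable at this depth.

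**Figure D2:**
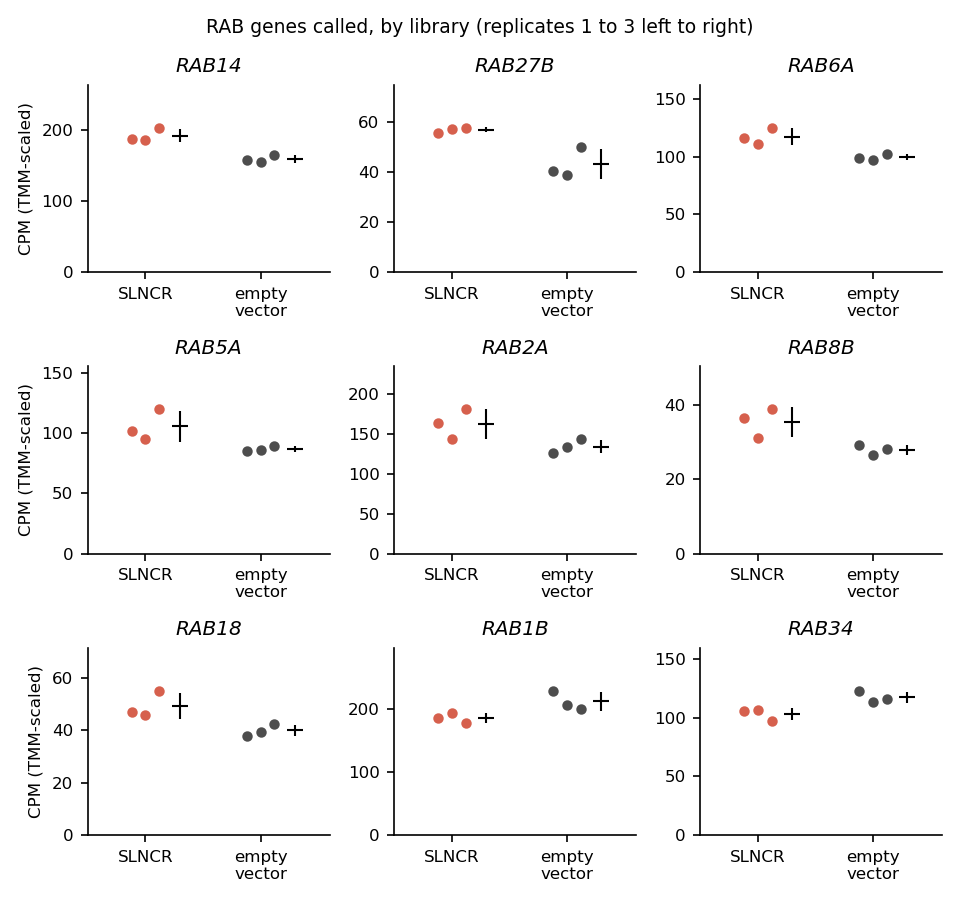
CPM (TMM-scaled, y axes from 0) of the 9 called RAB genes in each library, SLNCR left and empty vector right, with mean and SD of 3 libraries per group. For the 7 members called higher, the lowest SLNCR library lies above the highest empty vector library, and for RAB1B and RAB34 every SLNCR library lies below every empty vector library.

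Levels spanned a wide range within the family. Per kilobase of the longest transcript, RAB7A was highest, at 135 ± 3.05 CPM per kb with SLNCR and 134 ± 0.284 with empty vector (SD, n = 3 each). RAB1B followed at 92.1 ± 4.12 with SLNCR and 105 ± 7.53 with empty vector, and RAB5C at 80.8 ± 6.03 with SLNCR and 91.4 ± 7.19 with empty vector (CPM per kb, SD, n = 3 each). The CPM of RAB5C were 155, 166 and 143 with SLNCR and 190, 172 and 163 with empty vector, so that empty vector replicate 3 lay inside the SLNCR range. RAB1B and RAB5C, neighbours in this order, overlapped within their spread in empty vector cells. RAB10 stood at 74.9 ± 4.28 CPM per kb with SLNCR and 68.6 ± 1.40 with empty vector, and RAB34 at 58.6 ± 2.84 with SLNCR and 66.6 ± 2.76 with empty vector.

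Among the melanosome group, RAB29 was highest per kilobase, at 11.2 ± 1.236 CPM per kb with SLNCR and 10.7 ± 0.741 with empty vector (SD, n = 3 each). RAB32 had 7.95 ± 0.254 with SLNCR and 7.23 ± 0.417 with empty vector, and RAB27B had 7.78 ± 0.134 with SLNCR and 5.90 ± 0.822 with empty vector. RAB38 had 5.91 ± 0.482 with SLNCR and 5.32 ± 0.0582 with empty vector, and RAB27A was lowest, at 1.83 ± 0.0886 and 1.57 ± 0.213 CPM per kb with SLNCR and empty vector. RAB27B was thus the more abundant RAB27 transcript in these cells on the per-kilobase scale. RAB27A overlaps PIGB and PIGBOS1 in the annotation, with the limits given for RAB5A. Summed over the 57 members, RAB transcripts made up 3004, 2945 and 3089 CPM with SLNCR and 2904, 2827 and 2901 CPM with empty vector. Every SLNCR library was above every empty vector library in that sum, which corresponds to 0.295% to 0.308% of gene counts with SLNCR and 0.284% to 0.291% with empty vector. The sum was not corrected for GC content and was not set beside that of other genes. Median GC content was 45.5% over the tested members and 47.9% over all tested genes. With the GC correction the median log2 fold change of the tested members was 0.03.

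**Figure D3:**
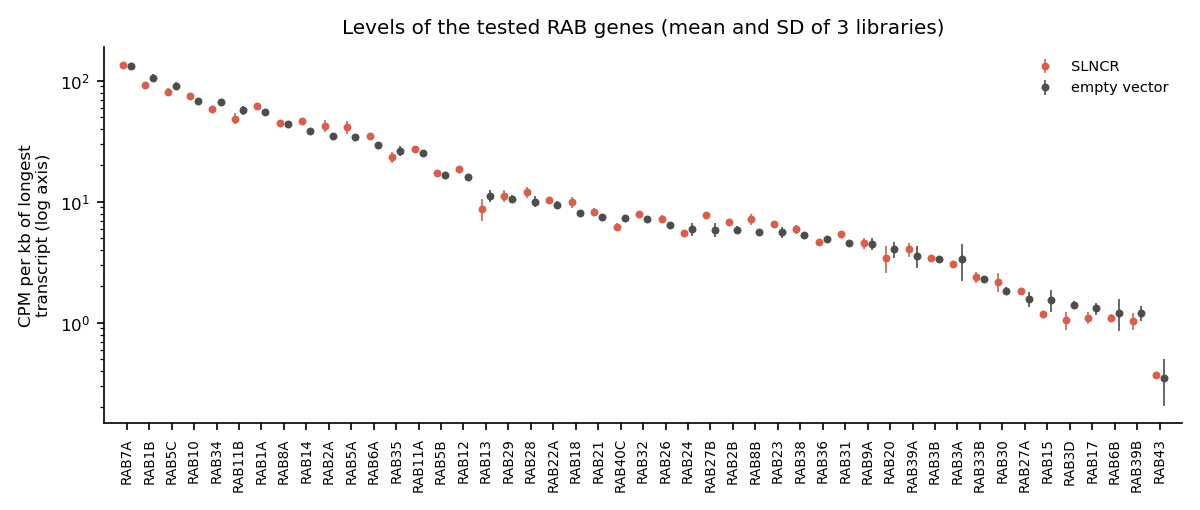
Mean level of each tested RAB gene in CPM per kb of its longest transcript (y axis, log scale) with SD of 3 libraries, SLNCR left of empty vector, ordered by the empty vector level. RAB7A leads at 135 and 134 CPM per kb with SLNCR and empty vector, and RAB43 is last at 0.367 and 0.352.

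The direction of a RAB gene followed the GC content of its transcript. Of 23 members below 45% GC, 22 had a positive log2 fold change, 7 were called higher and 0 lower, and the median was 0.22. Of 13 members above 55% GC, 2 had a positive value, 0 were called higher and 2 lower, and the median was -0.18. The 11 members between had a median of 0.04, with 0 called higher and 0 lower. The same held outside the family: 21.5% of all tested genes below 45% GC were called higher and 0.4% lower, with a median of 0.16, and 0.0562% of those above 55% GC were called higher and 22.6% lower, with a median of -0.21. Between these bounds 1.25% were called higher and 3.66% lower. Across the 47 members, log2 fold change and GC content had a Pearson r of -0.712 and a Spearman rho of -0.720, given as a description, since the genes share the same 6 libraries. Over all 12790 tested genes with a GC value r was -0.637.

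The relation could be followed within the transcripts. Here a principal coding transcript of each member was used, which for some members is not the longest (RAB13, 1176 against 2123 bases). For the GC content at codon position 3 r was -0.746 over the 47 members, and for the sequence after the stop codon it was -0.732. For the sequence before the start codon r was -0.0975. The 7 members called higher had a GC content of 35.9% (RAB27B) to 42.0% (RAB5A), and the 2 called lower had 61.1% (RAB1B) and 60.5% (RAB34).

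The GC relation differed between libraries of the same group. The medians that follow took only members with a mean of at least 50 counts. These were 22 of 23 members below 45% GC and 10 of 13 above 55%. Left out were RAB39B (log2 fold change -0.22) below 45%, and RAB17 (-0.25), RAB3A (-0.13) and RAB43 (0.04) above 55%. Relative to the empty vector mean, the median of 22 members of low GC content was 0.20, 0.12 and 0.31 on the log2 scale in the 3 SLNCR libraries, replicate 1 first, and -0.03, -0.03 and 0.06 in the 3 empty vector libraries. The median of 10 members of high GC content was -0.16, -0.10 and -0.26 in the SLNCR libraries and 0.11, -0.02 and -0.04 in the empty vector libraries. SLNCR replicate 3, which had the steepest GC slope of its group, was also the highest SLNCR library for each of the 7 members called higher and the lowest for both members called lower. Relative to the mean of all libraries, the slopes were negative in all 3 SLNCR libraries and positive in all 3 empty vector libraries. The GC trend of the libraries and the transfected plasmid therefore cannot be told apart by group.

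**Figure D4:**
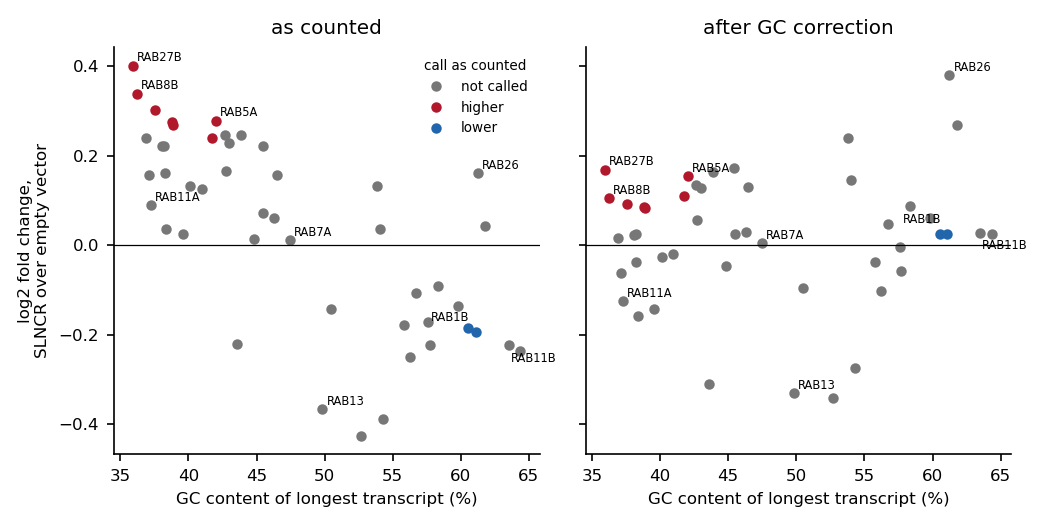
Log2 fold change (y axes, SLNCR over empty vector) of the 47 tested RAB genes against the GC content of their longest transcript (x axes), as counted (left) and after the GC trend of each library was removed (right); red and blue mark the 7 and 2 members called as counted. The points fall with GC content on the left (r -0.712) and show no such slope on the right (r 0.0798), where RAB26 is highest at 0.38.

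After the GC trend was removed from each library, the values of the 9 called members shrank. RAB27B stood at 0.17, RAB5A at 0.15, RAB6A at 0.11, RAB8B at 0.10, and RAB2A, RAB18 and RAB14 at 0.09, 0.09 and 0.08. RAB1B and RAB34 changed sign, to 0.03 each. The groups of RAB14, RAB6A, RAB5A and RAB18 still did not overlap on the corrected scale, and those of the other 5 did. The correction reversed the sign of 15 of the 47 tested members, and the median absolute log2 fold change fell to 0.09 with the correction, against 0.18 without it. For all tested genes these medians were 0.09 and 0.16.

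Other members stood out on the corrected scale. RAB26, which acts in secretory granules and has 61.2% GC, had a corrected value of 0.38, against 0.16 as counted, with an edgeR adjusted p of 0.129, the smallest of the family. It had 12.9, 15.1 and 13.8 CPM with SLNCR and 12.2, 13.2 and 12.04 CPM with empty vector, an overlap of 1 library each way. RAB13, at 49.8% GC, kept -0.33 after correction, against -0.37 as counted. Its CPM were 19.1, 21.9 and 14.4 with SLNCR and 27.2, 22.7 and 21.8 with empty vector, and SLNCR replicate 2 and empty vector replicate 3 overlapped by a small margin. RAB12 and RAB8A had corrected values of 0.17 and 0.15 and RAB11A one of -0.13. None passed with adjustment, and these members were singled out after their values were seen. Without overlap on the corrected scale there were 9 members higher and 5 lower, beside 10.6% and 9.89% of all tested genes.

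Close paralogs allowed the same comparison within a library, because the ratio of 2 genes does not depend on the scaling of the library. In 13 pairs of paralogs with both members tested, which share some members, the log2 ratio of the lower-GC to the higher-GC member was larger with SLNCR in 12. Groups did not overlap in 6 pairs, all in that direction. No such count was made for other gene pairs. Over all tested genes, too, log2 fold change fell with GC content (Pearson r -0.637). The direction was therefore not shown to be particular to RAB paralogs. With 3 libraries against 3 the exact permutation test cannot give a two-sided p below 0.1, and the smallest value adjusted over the 13 pairs was 0.217, so no pair passed.

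The RAB1A to RAB1B log2 ratio was -0.30, -0.43 and -0.12 with SLNCR and -0.78, -0.64 and -0.49 with empty vector. RAB1B was the more abundant transcript by CPM in every library, and RAB1A came closest to it in SLNCR replicate 3. The difference between the groups was 0.35 (SE 0.121, exact permutation p = 0.1). For RAB5A to RAB5C the ratio was -0.61, -0.80 and -0.25 with SLNCR and -1.15, -1.01 and -0.86 with empty vector, a difference of 0.45 (SE 0.180, exact permutation p = 0.1). For RAB8B to RAB8A it was -1.86, -2.02 and -1.64 with SLNCR and -2.10, -2.27 and -2.06 with empty vector, a difference of 0.30 (SE 0.128, exact permutation p = 0.1). In these 3 pairs the groups were apart and the SLNCR libraries stood in the order of their GC slopes, replicate 3 highest and replicate 2 lowest.

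For RAB11A to RAB11B, the pair with the widest gap in GC content (26.3 percentage points), the log2 ratio was 0.60, 0.49 and 0.87 with SLNCR and 0.22, 0.25 and 0.53 with empty vector. Empty vector replicate 3 lay inside the SLNCR range, and the difference was 0.32 (SE 0.151, exact permutation p = 0.2). After the GC correction the differences were -0.06 for RAB1A to RAB1B, 0.19 for RAB5A to RAB5C, -0.04 for RAB8B to RAB8A and -0.15 for RAB11A to RAB11B. Over the 13 pairs, 7 differences were positive after that correction. RAB27B and RAB27A were close in GC content, 2.25 points apart. Their log2 ratio was 3.15, 3.15 and 3.07 with SLNCR and 3.01, 2.83 and 2.96 with empty vector, a difference of 0.19 (SE 0.0598, exact permutation p = 0.1) that was 0.15 after the GC correction.

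**Figure D5:**
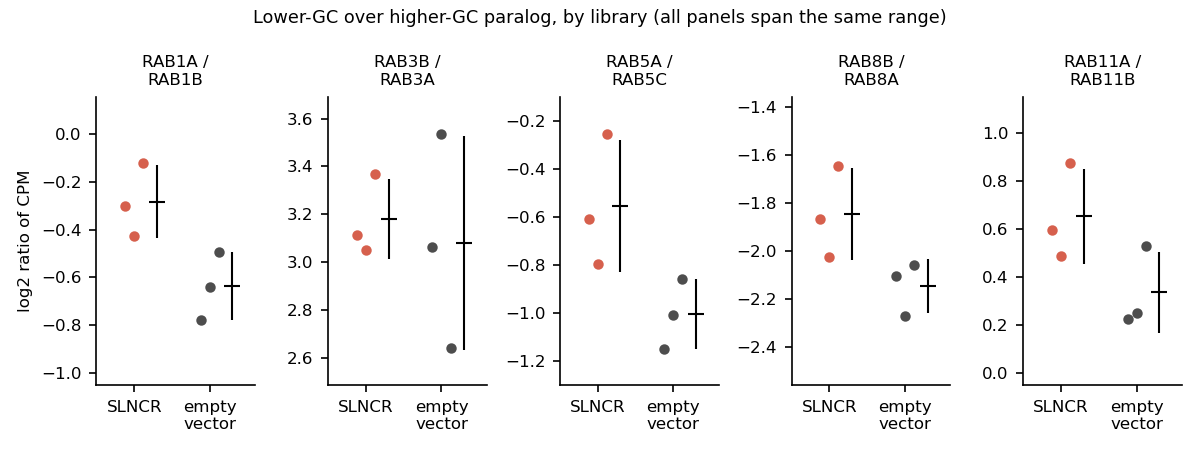
Log2 ratio of CPM (y axes, each spanning the same range) of the lower-GC to the higher-GC member in each library for the 5 paralog pairs more than 10 percentage points of GC apart, SLNCR left and empty vector right, with mean and SD of 3 libraries. The SLNCR mean is above the empty vector mean in all 5 pairs, and the groups do not overlap for RAB1A to RAB1B, RAB5A to RAB5C and RAB8B to RAB8A.

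Genes that act on RAB proteins were counted from lists of textbook members. Of 9 tested genes for prenylation, escort and recycling of RABs, 2 were called higher and 0 lower, with a median log2 fold change of 0.03. They were the RAB escort proteins CHML (0.28, edgeR adjusted p = 0.0174) and CHM (0.26, edgeR adjusted p = 0.0385), which present RABs for prenylation. The transferase subunits RABGGTB and RABGGTA stood at 0.14 and -0.22 without passing. CHML had 231, 201 and 244 CPM with SLNCR and 178, 182 and 199 CPM with empty vector, so the groups were apart by a narrow margin. CHML and CHM have 36.6% and 36.8% GC, and their values were 0.05 and 0.04 after the GC correction.

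Of 38 tested exchange factors, 3 were called higher and 7 lower, with a median log2 fold change of -0.05. CCZ1 and CCZ1B, whose product with MON1 loads RAB7A, rose to 46.8, 43.7 and 58.9 CPM and to 53.0, 46.0 and 61.9 CPM with SLNCR, against 33.3, 37.0 and 36.2 CPM and 37.5, 44.4 and 43.3 CPM with empty vector. Their log2 fold changes were 0.48 and 0.36 (edgeR adjusted p = 0.0137 and 0.0258), and SLNCR replicate 3 was the highest library for both. They are near-identical copies, so how their counts are divided is uncertain. With 46.3% and 47.5% GC they stood at 0.45 and 0.35 after the GC correction, with an edgeR adjusted p of 0.0572 and 0.112. SBF1, an exchange factor for RAB28, fell (-0.25, edgeR adjusted p = 0.0211), as did DENND2A, for RAB9 proteins (-0.65, edgeR adjusted p = 0.0291). After the GC correction SBF1 stood at 0.02 and DENND2A at -0.49. Of the genes for MON1, the partner of CCZ1, MON1A fell (-0.33, edgeR adjusted p = 0.0309). MON1B stood at -0.18 without passing (edgeR adjusted p = 0.102). Their values were -0.17 and -0.14 after the GC correction (edgeR adjusted p = 0.402 and 0.331). As counted, CCZ1 and CCZ1B were thus called higher and MON1A lower. With the GC correction none of these genes passed, so a separate movement of the genes of this complex was not shown.

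Of 35 tested GTPase-activating proteins of the TBC family, 3 were called higher and 1 lower, with a median of 0.03. TBC1D23, a bridge for vesicles at the Golgi, had a log2 fold change of 0.29 (edgeR adjusted p = 0.0179), TBC1D15, which acts on RAB7A, one of 0.26 (0.0211), and TBC1D5, of the retromer pathway, one of 0.20 (0.0463). TBC1D10B, which acts on RAB35 and RAB27A, fell by 0.20 (edgeR adjusted p = 0.0478). After the GC correction the values were 0.11 for TBC1D23, 0.03 for TBC1D15, 0.13 for TBC1D5 and -0.10 for TBC1D10B. Of 41 tested effectors, 6 were called higher and 4 lower, with a median of -0.05. RAB11FIP3 and RAB11FIP2, both effectors of RAB11, moved apart, with -0.49 and 0.36 (edgeR adjusted p = 0.0137 and 0.0139), and have 64.5% and 36.6% GC. RAB11FIP3 had 38.8, 40.6 and 36.2 CPM with SLNCR and 59.6, 53.4 and 49.7 CPM with empty vector, and its value was -0.23 after the GC correction. The tether USO1, an effector of RAB1, rose by 0.29 (edgeR adjusted p = 0.0139), and EHBP1L1, an effector of RAB8, fell by 0.34 (edgeR adjusted p = 0.0206). RAB11FIP2, USO1 and EHBP1L1 stood at 0.13, 0.10 and -0.08 after the GC correction.

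Of 19 tested melanosome partners of RAB27A, RAB32 and RAB38, MYO5A alone was called, with a median of 0.02 over the list. MYO5A encodes myosin Va and had 130, 120 and 128 CPM with SLNCR and 100.2, 106 and 117 CPM with empty vector (log2 fold change 0.23, edgeR adjusted p = 0.0282). Its groups were apart by a narrow margin, and its value was 0.14 after the GC correction. BLOC1S6, AP3D1 and AP3B1, of the complexes that sort melanosome cargo, stood at 0.18, -0.14 and 0.18 without passing. The counts in all 5 lists are to be read beside the shares of all tested genes called, 8.84% higher and 7.67% lower. With the GC correction edgeR called 0 of the 136 tested genes of the 5 lists. At an unadjusted p below 0.05 in that fit, 9 were higher and 7 lower, beside 15.1% of all tested genes in either direction.

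Promoters of 46 members were found in RefSeq (GRCh38.p14, 250 bases before to 50 after the start), 37 of them of tested members. An E2F motif (the letters TTGGCGC on either strand, or else TTCCCGC in their place, or likewise TTGCCGC, or finally also TTCGCGC) was present in 4 of these 37 (10.8%), against 20.8% of the promoters of tested genes and 13% of all promoters. It was in 0 of the 6 promoters of members called higher and 0 of the 2 of members called lower. The E-box CACGTG was in 5 of 37 (13.5%, against 10.1% of tested genes), and the M-box TCATGTG, known from pigment genes, in 1 of 37 (2.7%, against 1.74%).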

How the data were processed

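RNA of 3 SLNCR and 3 empty vector libraries of A375 cells was compared. The deposited table holds raw counts of reads per gene, as whole numbers with unequal totals. The submitters' processing notes name cutadapt, STAR, DESeq2 and the build GRCh38, with no order or role. The sources used here do not give the read counter, its strand setting or its annotation. Of 20238 table rows, 1857 named no gene and held 2.15% to 2.59% of a library's counts. They were left out, as were 63 copies in 22 runs of neighbouring table rows with identical counts. Libraries of a group differed by more than sampling noise (chi-square per degree of freedom 1.79 to 6.97), and each was counted as 1 replicate.

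Groups came from the labels. The test was edgeR 4.0.16 in R 4.3.3 (robust quasi-likelihood F, two-sided, TMM factors, filterByExpr filter), and p-values of 12797 genes were adjusted together after Benjamini and Hochberg (threshold 0.05). SE came from the fold change and its F, and the biological coefficient of variation was 5.65%. CPM were scaled by TMM, and log2 CPM used a prior count of 2. GC content and length are of the longest GENCODE 29 transcript. The GC correction subtracted a loess curve on GC content from each library (span 0.5, degree 2, set on genes above 1 on the log2 CPM scale). The curve, and the line behind each GC slope, was fitted to deviations from a gene's mean over the libraries. Alternatives were other scalings, filters and thresholds, DESeq2 1.42.0, limma-voom (limma 3.58.1), the replicate block and leaving out each library. Paralog ratios were compared by exact permutation (SciPy 1.17.1), and coding sequences were aligned through their translation with Biopython 1.88. The fits were also run on simulated data with and without a GC trend, in genes drawn without regard to GC content. Those runs cannot show what the GC correction does to a change that follows GC content.

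Members, lists, roles and tests were chosen with earlier results of these data known. Values of every library were to be given for called members, RAB27A, RAB32, RAB38, RAB7A and the 3 highest per kilobase, and up to 4 genes of each pathway list were named by adjusted p. Members described after the GC correction, further paralog pairs, and MON1A and MON1B were chosen after their values were seen. Protein sequences were not used here.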

Additional observations from a re-analysis of the deposited data

How the results depend on the processing

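The number of members called higher was 7 with DESeq2, limma-voom, DESeq2-style size factors, upper quartile factors, a filter at a mean of 50 counts, the table rows that name no gene kept, or identical table rows kept. Over all genes these fits called from 913 (DESeq2) to 1261 (table rows that name no gene kept) higher. With no filter, which tested all 57 members, 10 members were called higher (all genes 1669). Of members called lower there was 1 with DESeq2, with DESeq2-style size factors and with the table rows that name no gene. All genes called lower in these fits were 720, 937 and 877, in that order. There were 4 members called lower with no filter (all genes 1235). At an adjusted p of 0.01, 0 members were higher and 0 lower (all genes 2 and 0), and at 0.1 there were 11 and 5 (all genes 1838 and 1804). Where 1 library was left out, with or without the GC correction, members called ran from 0 to 11 higher and from 0 to 6 lower, and all genes from 0 to 1722 higher and from 0 to 1644 lower. The causes of these shifts were not tested.

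With the replicate number as a block, 11 members were higher and 5 lower (all genes 1772 and 1751). Deviations of same-numbered libraries from their group means correlated at 0.0749, 0.00726 and 0.239 for replicates 1, 2 and 3, and SLNCR replicate 2 correlated best with empty vector replicate 1 (0.205), so the libraries were taken to share a number only. The GC correction, which by its construction takes out every difference that follows GC content, left 0 members higher and 0 lower (all genes 1 and 1). With the GC correction and the replicate block together there were 0 and 0 as well (all genes 161 and 246).

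The GC correction, without and with the replicate block, reversed these log2 fold changes, and 2 values are given where they differ: RAB1B 0.026, RAB11B 0.028 and 0.026, RAB34 0.026 and 0.027, RAB1A -0.037, RAB21 -0.062, RAB10 -0.019, RAB22A -0.026, RAB40C 0.026 and 0.028, RAB11A -0.13, RAB36 0.048 and 0.050, RAB3B -0.047, RAB3A 0.061 and 0.088, RAB24 0.087, RAB33B -0.16, RAB9A -0.14 and -0.15. Log2 fold changes that crossed 0 in a fit without 1 library, with or without the GC correction, had these ranges: RAB1B -0.23 to 0.056, RAB11B -0.28 to 0.056, RAB34 -0.21 to 0.043, RAB1A -0.051 to 0.20, RAB5C -0.23 to 0.0045, RAB21 -0.074 to 0.19, RAB10 -0.036 to 0.17, RAB23 -0.042 to 0.30, RAB35 -0.24 to 0.050, RAB22A -0.078 to 0.19, RAB30 -0.079 to 0.35, RAB40C -0.29 to 0.092, RAB11A -0.15 to 0.12, RAB29 -0.053 to 0.13, RAB36 -0.17 to 0.12, RAB7A -0.0080 to 0.027, RAB3B -0.078 to 0.042, RAB27A -0.038 to 0.33, RAB20 -0.40 to 0.071, RAB17 -0.33 to 0.019, RAB39A -0.072 to 0.33, RAB6B -0.35 to 0.099, RAB3A -0.34 to 0.37, RAB24 -0.18 to 0.13, RAB33B -0.20 to 0.094, RAB9A -0.22 to 0.11, RAB43 -0.24 to 0.57. Differences in paralog log2 ratios, whose alternatives were added after the data were seen, reversed to -0.064 for RAB1A to RAB1B, -0.041 for RAB2A to RAB2B, -0.16 for RAB3B to RAB3A, -0.042 for RAB8B to RAB8A and -0.15 for RAB11A to RAB11B with the GC correction. With 1 library left out, the difference ran from -0.12 to 0.33 for RAB3B to RAB3A and from -0.0076 to 0.12 for RAB2A to RAB2B, and the other 11 pairs kept their sign.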
